A study of Mus musculus with 2 samples.

Results

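The insulin-like growth factor (IGF) system was described here through 10 genes: the ligand genes *Igf1* and *Igf2*, the receptor genes *Igf1r*, *Igf2r* and *Insr*, and the binding protein genes *Igfbp2*, *Igfbp3*, *Igfbp4*, *Igfbp5* and *Igfbp6*. They were taken by name from the 55573 gene rows of a hippocampal RNA-seq table, and all 10 were found. An FPKM (the count divided by the gene's exon length and by the library's total count) of 1 or more was reached by 9 of them in at least 1 library and by 8 in both. *Igf1* stayed under that minimum in both libraries, and *Igf2* passed it only through the library in which it was higher.

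The study examined mice that lack the kinase gene *Cdk5* in endothelial cells, which line the blood vessels. One library came from *Cdh5-CreERT2;CDK5f/f* hippocampus, labelled as treated with tamoxifen, and is called the mutant library here. The second came from *CDK5f/f* hippocampus, labelled as untreated, and is called the control library. Both carry the floxed *Cdk5* allele and are of strain C57BL/6, and the series text places the tissue in CA1. The *Cdh5* promoter drives a Cre recombinase that tamoxifen activates, so the deletion is directed at endothelial cells only, a minor part of the tissue. Age and the number of mice behind each library are not given in the sources used here. With 1 library per genotype no difference has a replicate check and no test between genotypes or p-value was possible.

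IGF-I and IGF-II are small secreted growth factors that signal mainly through the IGF-I receptor, a tyrosine kinase, and IGF-II also through the insulin receptor. The IGF-II receptor carries lysosomal enzymes inside the cell and takes IGF-II up for degradation. The binding proteins hold the ligands outside the cell, where they prolong their life, limit their access to receptors or, after cleavage by proteases, release them. In the adult brain, *Igf2* and *Igfbp2* are known to be expressed strongly in the choroid plexus and the meninges, and the hippocampus responds to both ligands.

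The gene counts summed to 18900847 in the mutant library and 19451827 in the control library. The targeted gene *Cdk5* had 1257 counts in the mutant library and 1261 in the control library, and since neurons express it too, tissue RNA does not check its deletion in endothelium. The libraries differed in more than their labels: the X-inactivation transcript *Xist* had 34 counts in the mutant library and 15070 in the control library, and the Y-linked *Ddx3y* had 771 and 0 counts. Sex, genotype and tamoxifen therefore cannot be told apart. Markers of the choroid plexus, which lies against the hippocampus, were higher in the mutant library for all 15 of the 15 genes listed, with a summed FPKM of 3913 in the mutant library and 175.1 in the control library, and none was at 0 in either. The pituitary hormone genes *Prl* and *Gh* had 0 and 0 counts in the mutant library, against 236 and 70 in the control library. Other listed pituitary genes did not all go this way. *Cga* had 0 counts in the mutant library and 9 in the control library, *Tshb* 31 and 32, *Pomc* 18 and 13, and *Pou1f1* 5 and 0. Among 17 endothelial markers, 16 passed the FPKM minimum and none was past 1.5-fold. The 17 summed to 134.3 FPKM in the mutant library and 137.9 in the control library. The log2 ratios of FPKM + 1 of the 16, mutant over control, ran from -0.516 to 0.245 around a median of -0.10. They were above 0 for 6 of the 16, beside 50.3% of all genes that passed the minimum. The 10 CA1 and other pyramidal neuron markers summed to 1590 FPKM in the mutant library and 1842 in the control library, and none was at 0 in either. Dentate granule cell markers were also detected, with sums of 94.88 FPKM in the mutant library and 95.45 in the control library. These sums do not show how far the tissue was limited to CA1. In bulk tissue, more cells of a type and more RNA per cell cannot be told apart.

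Differences are given as a pair of ratios. The log2 ratio is that of FPKM + 1 in the mutant library over the control library, and a gene was counted as past 1.5-fold on this scale only if its FPKM was at least 1 in either library. The count ratio is that of counts per library total, with an exact 95% interval for counting error, which takes no account of differences between mice. Of the 14778 genes that reached an FPKM of 1, 6.81% were past 1.5-fold, 3.65% higher and 3.16% lower in the mutant library. Counting intervals lay above 1 for 19.7% of them and below 1 for 17.9%. Of the 10 IGF system genes, *Igf2* and *Igfbp2* were past 1.5-fold, both higher in the mutant library, and none was lower. Counting intervals lay above 1 for 6 of them, *Igf2*, *Igf2r*, *Insr*, *Igfbp2*, *Igfbp3* and *Igfbp4*, and below 1 for 0. The count ratio itself was above 1 for 9 of the 10, and over the 14778 genes the log2 ratio was above 0 for 50.3%. The median log2 ratio of the 10 was 0.19, beside 0.0019 over the 14778 genes. These counts describe 10 chosen genes in 2 libraries, and nothing particular to the family is read from them.

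**Figure D1:**
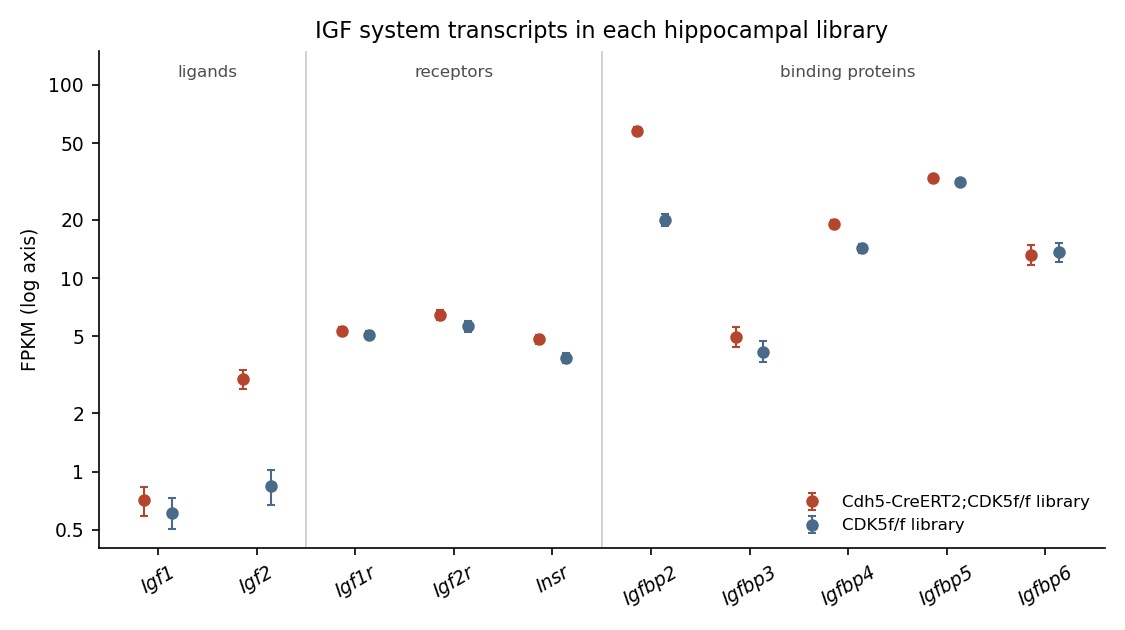
FPKM on a log axis of the 10 IGF system genes, with the mutant library left of the control library for each gene and bars for the exact 95% Poisson interval, which covers counting error only. *Igfbp2* stood at 57.66 and 20.07 FPKM and *Igf2* at 3.0 and 0.84 FPKM, while the points of *Igf1r*, *Igfbp5* and *Igfbp6* lay close together.

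The start regions of *Igfbp2*, *Igfbp5* and *Igf2* are shown first. *Igfbp2* and *Igfbp5* are neighbours on chromosome 1, of which only *Igfbp2* was past 1.5-fold, and *Igf2* has several starts. Any part of the start regions in the differences was not tested. *Igfbp2* lies at chr1:72824503-72852474 on the plus strand and *Igfbp5* at chr1:72857932-72874884 on the minus strand. Their ends are 5457 bases apart, so the genes run towards each other and their starts lie at opposite ends of the pair. The windows below are RefSeq start regions of assembly GRCm38.p6, each of 300 bases with 250 before the start and 50 after it, printed along the gene's strand. Capitals mark a GC box (GGGCGG, or CCGCCC on the opposite strand) or an E-box (CACGTG, which reads the same on both strands). The first *Igfbp2* window is chr1:72824230-72824529 on the plus strand and the *Igfbp5* window is chr1:72874816-72875115 on the minus strand.
Igfbp2: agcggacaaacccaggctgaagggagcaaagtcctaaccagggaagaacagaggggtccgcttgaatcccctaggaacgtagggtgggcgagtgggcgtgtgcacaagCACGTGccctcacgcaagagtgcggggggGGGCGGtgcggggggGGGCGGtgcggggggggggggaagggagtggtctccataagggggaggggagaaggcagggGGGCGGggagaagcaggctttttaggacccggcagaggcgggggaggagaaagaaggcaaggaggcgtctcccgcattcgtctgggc
Igfbp5: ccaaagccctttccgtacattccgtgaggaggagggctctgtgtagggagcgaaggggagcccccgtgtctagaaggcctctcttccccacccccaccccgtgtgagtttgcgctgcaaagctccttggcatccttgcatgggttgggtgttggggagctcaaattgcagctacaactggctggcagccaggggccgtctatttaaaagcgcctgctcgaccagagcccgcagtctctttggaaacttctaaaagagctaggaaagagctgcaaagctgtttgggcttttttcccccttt
This *Igfbp2* window held 3 GC boxes and 1 E-box, with 67% G and C and 18 CpG. The second *Igfbp2* window, chr1:72825137-72825436, held none of these motifs, with 57.3% G and C and 14 CpG. The *Igfbp5* window also held none, with 56.3% G and C and 10 CpG. Over the 32807 start windows of all genes in the RefSeq table, the medians were 52.7% G and C and 7 CpG.

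*Igf2*, at chr7:142650766-142666816 on the minus strand, had 4 start windows in the RefSeq table, of which the first 2 held no GC box and no E-box. The last 2 are printed, since they were the ones with a match. Window 3 is chr7:142658755-142659054 and window 4 is chr7:142657447-142657746, both on the minus strand.
Igf2 window 3: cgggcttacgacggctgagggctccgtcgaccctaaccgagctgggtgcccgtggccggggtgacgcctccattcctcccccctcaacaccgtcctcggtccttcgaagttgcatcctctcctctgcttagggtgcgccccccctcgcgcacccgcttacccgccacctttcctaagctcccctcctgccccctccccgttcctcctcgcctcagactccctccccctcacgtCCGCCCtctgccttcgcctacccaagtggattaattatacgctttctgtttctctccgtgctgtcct
Igf2 window 4: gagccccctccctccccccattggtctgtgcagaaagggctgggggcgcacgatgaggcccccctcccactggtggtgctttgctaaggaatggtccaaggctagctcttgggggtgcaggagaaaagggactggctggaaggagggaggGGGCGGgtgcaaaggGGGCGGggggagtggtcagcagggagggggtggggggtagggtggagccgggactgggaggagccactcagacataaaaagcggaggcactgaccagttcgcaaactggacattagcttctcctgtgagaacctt
Window 3 held 1 GC box and 24 CpG, and window 4 held 2 GC boxes and 7 CpG. Gene counts do not say which start was used in either library.

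Start windows were found for 9 of the 10 genes, 13 in all. A GC box was present in 5 of the 13, in *Igf2* (2 windows), *Igf1r*, *Igf2r* and *Igfbp2*, beside 35.6% of the windows of all genes. The E-box was present in 2, of *Igf2r* and *Igfbp2*, beside 7.15%. A TATA box (TATAAA, or TTTATA on the opposite strand) was present in those of *Igfbp4* and *Igfbp6*, beside 13.6%. The site of FOXO factors, the transcription factors that insulin and IGF signalling hold out of the nucleus, was searched as TGTTTAC on either strand. It was present in 0 of the 13, beside 3.65% of all windows. No 2 motifs overlapped, and a match is a stretch of letters, not a measured binding site.

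Among the ligands, *Igf2* had 324 counts in the mutant library and 93 in the control library, or 3.0 and 0.84 FPKM. This was a log2 ratio of 1.12 and a count ratio of 3.59 (2.84 to 4.57), and 197 of the 14778 genes had a higher log2 ratio. *Igf1* (chr10:87858265-87937042, plus strand), the ligand that mediates much of the action of growth hormone, had 132 counts in the mutant library and 117 in the control library. Its level was 0.71 FPKM in the mutant library and 0.61 in the control library, with a count ratio of 1.16 (0.898 to 1.502). The ligands thus differed to unequal extents: the level of *Igf2* was 4.25 times that of *Igf1* in the mutant library and 1.38 times in the control library. This change in their ratio, 3.09-fold (2.168 to 4.398), does not depend on how the libraries are scaled. *Igf2* made up 80.9% of the ligand FPKM in the mutant library and 57.9% in the control library, where the sums were 3.71 and 1.45 FPKM.

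Of the 5723 exon bases of *Igf2*, 62.8% are shared on the same strand with the gene model *Gm49394*, which was listed at 0 counts in both libraries. The antisense gene *Igf2os* shares 98 exon bases with it and had 17 counts in the mutant library and 10 in the control library. The sources used here do not give whether counting used strand, so reads in these stretches could not be assigned to one gene. The level of *Igf2* beside other genes, which divides by all 5723 exon bases, is therefore uncertain. This holds for its share of the ligand FPKM and for its level relative to *Igf1* and to *Igfbp2* in each library. The exons of the other 9 genes overlap no other annotated gene. The imprinted neighbour *H19*, a non-coding RNA, lies 72622 bases from *Igf2*. In many tissues *H19* is expressed from the maternal copy and *Igf2* mostly from the paternal one. Which copy was expressed in these libraries was not measured. *H19* had 3 counts in the mutant library and 5 in the control library, and the insulin gene *Ins2*, 11839 bases from *Igf2*, had 5 and 0. Neither neighbour was covered deeply enough for its difference to be measured.

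The receptors differed less. *Igf1r* (chr7:67952827-68233668, plus strand), the main signalling receptor for both ligands, had 1699 counts in the mutant library and 1669 in the control library, or 5.35 and 5.11 FPKM. Its count ratio of 1.05 (0.979 to 1.12) is not distinguishable from 1 by counting error alone. *Igf2r* (chr17:12682406-12769664, minus strand), the clearance receptor of IGF-II and carrier of mannose 6-phosphate-tagged enzymes, had 1140 counts in the mutant library and 1021 in the control library, or 6.48 and 5.64 FPKM. Its count ratio was 1.15 (1.055 to 1.252), with a log2 ratio of 0.17. *Insr* (chr8:3122061-3279617, minus strand), the insulin receptor gene, stood at 4.82 FPKM in the mutant library and 3.88 in the control library, and its log2 ratio of 0.25 was the highest of the receptors. All of them lay within 1.5-fold.

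Within each library, the level of *Insr* was 0.900 times that of *Igf1r* in the mutant library and 0.760 times in the control library, a difference of 1.19-fold (1.06 to 1.32). The level of *Igf2r* relative to *Igf1r* was 1.21 and 1.10, and the interval of that difference, 1.10-fold (0.983 to 1.22), included 1. The 3 receptors summed to 16.65 FPKM in the mutant library and 14.63 FPKM in the control library. Their shares of these sums were alike: *Igf2r* took 38.9% in the mutant library and 38.6% in the control library, *Igf1r* 32.1% and 34.9%, and *Insr* 28.9% and 26.5%.

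Among the binding proteins, *Igfbp2* had 2013 counts in the mutant library and 721 in the control library. Its product binds IGF-II more tightly than IGF-I and is abundant in cerebrospinal fluid. The levels were 57.66 and 20.07 FPKM, a log2 ratio of 1.48 and a count ratio of 2.87 (2.64 to 3.13), and 99 of the 14778 genes had a higher log2 ratio. *Igfbp5*, the neighbour of *Igfbp2*, codes for a binding protein that attaches to the extracellular matrix. It had 3727 counts in the mutant library and 3668 in the control library, or 32.83 and 31.4 FPKM, with a count ratio of 1.05 (0.999 to 1.09). The level of *Igfbp2* was 1.76 times that of *Igfbp5* in the mutant library and 0.639 times in the control library, so the order of the neighbours was opposite in the libraries, with a 2.75-fold difference (2.49 to 3.03) that the scaling does not touch.

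*Igfbp4* (chr11:99041244-99054392, plus strand), whose product is inactivated by the protease PAPP-A, had 1587 counts in the mutant library and 1224 in the control library. The levels were 19.01 and 14.25 FPKM, with a count ratio of 1.33 (1.24 to 1.44) and a log2 ratio of 0.39, under 1.5-fold and next after *Igf2* and *Igfbp2* among the 10 genes. *Igfbp3* (chr11:7206086-7213923, minus strand), the main IGF carrier of blood serum, had 294 counts in the mutant library and 254 in the control library, or 4.97 and 4.17 FPKM. Its count ratio was 1.19 (1.00 to 1.42), at the edge of counting error. *Igfbp6* (chr15:102144362-102149511, plus strand), which prefers IGF-II, had 277 counts in the mutant library and 294 in the control library, or 13.18 and 13.59 FPKM. It was the only one of the 10 with a ratio below 1, 0.970 (0.820 to 1.15), and the interval included 1.

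**Figure D2:**
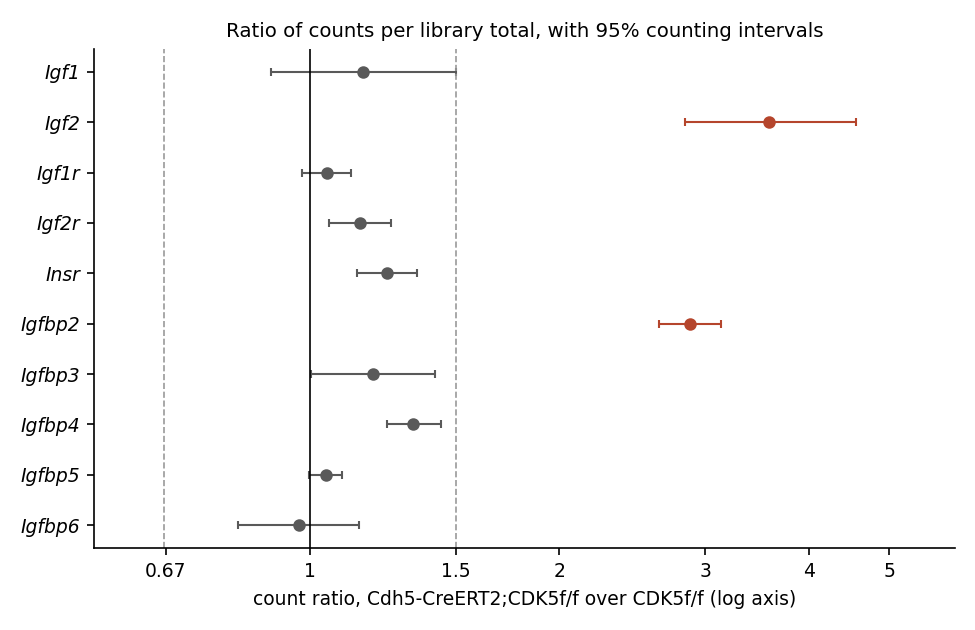
Count ratio, mutant over control, on a log axis for the 10 genes, with bars for the exact 95% counting interval, a line at 1, dashed lines at 1.5-fold either way and red points for the genes past 1.5-fold. *Igf2* (3.59) and *Igfbp2* (2.87) stood beyond 1.5-fold with their whole intervals, and the other 8 ratios lay between 0.970 and 1.33.

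The 5 binding protein genes summed to 127.7 FPKM in the mutant library and 83.48 FPKM in the control library, a ratio of 1.53. Without *Igfbp2* the sums were 69.99 and 63.41 FPKM, a ratio of 1.10. *Igfbp2* made up 45.2% of the sum in the mutant library and 24% in the control library, whereas the share of *Igfbp5* was 25.7% and 37.6%. *Igfbp4* took 14.9% in the mutant library and 17.1% in the control library, *Igfbp6* 10.3% and 16.3%, and *Igfbp3* 3.89% and 5%.

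**Figure D3:**
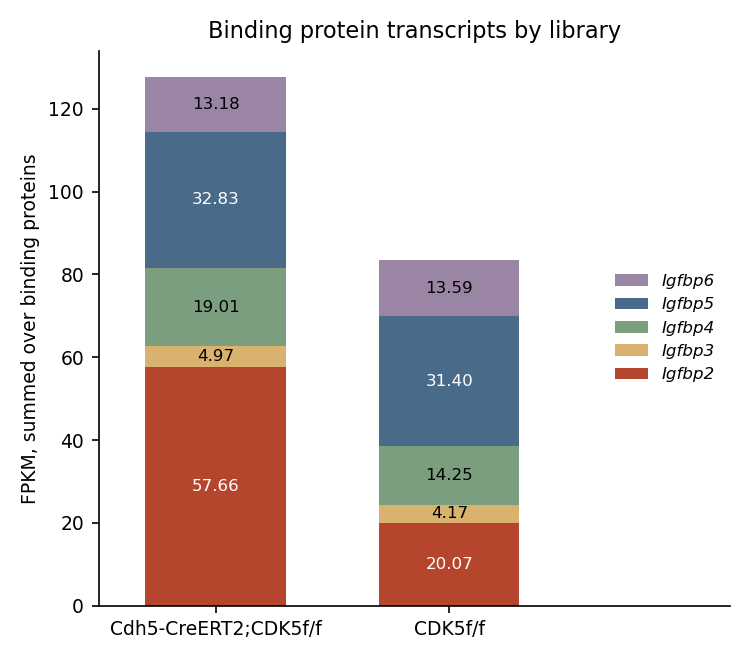
FPKM of the 5 binding protein genes stacked for the mutant library (left) and the control library (right), with each gene's value in its segment. The stacks reach 127.7 and 83.48 FPKM, and the *Igfbp2* segment is the one that differs most, 57.66 and 20.07 FPKM.

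The order of the 10 levels was similar but not the same. In the mutant library *Igfbp2* was highest, followed by *Igfbp5*, *Igfbp4*, *Igfbp6*, *Igf2r*, *Igf1r*, *Igfbp3*, *Insr*, *Igf2* and *Igf1*. The counting intervals of neighbours in this order overlapped only for *Igf1r* with *Igfbp3* and for *Igfbp3* with *Insr*. In the control library *Igfbp5* was highest and *Igfbp2* second, and the rest followed in the same order. There the intervals overlapped for *Igfbp4* with *Igfbp6*, *Igf2r* with *Igf1r*, *Igfbp3* with *Insr*, and *Igf2* with *Igf1*. By these values, the binding proteins other than *Igfbp3* exceeded the receptors in both libraries, and the ligands were lowest in both. The place of *Igf2* is uncertain, since 62.8% of its exon bases are shared with *Gm49394* and reads there could not be assigned to one gene.

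*Igf2* and *Igfbp2* were higher in the library in which the choroid plexus list was higher. The most abundant choroid plexus genes were *Ttr*, the thyroxine carrier of cerebrospinal fluid, with 78546 counts in the mutant library and 2797 in the control library, and *Enpp2*, which makes lysophosphatidic acid, with 29815 and 4489. *Kl*, the gene of the FGF co-receptor klotho, had 3180 and 561 counts, and the chloride channel gene *Clic6* had 1691 and 208. The lowest count ratio in that list, 4.05 for *Calml4*, was above those of *Igf2* (3.59) and *Igfbp2* (2.87). On the log2 scale of FPKM + 1 the order differed: *Calml4* was at 1.12, beside 1.12 for *Igf2* and 1.48 for *Igfbp2*. Of the 16 fibroblast markers, which stand for the meninges and vessel surroundings, 13 passed the minimum, with sums of 50.47 FPKM in the mutant library and 39.08 in the control library. Only *Slc13a4*, a sulfate transporter gene, was past 1.5-fold among them, with 694 counts in the mutant library and 144 in the control library. Of the 13, 10 had a log2 ratio above 0, beside 50.3% of all genes that passed it, and the median of the 13 was 0.20. The collagen-binding *Dcn*, with 781 counts in the mutant library and 852 in the control library, had the lowest, -0.07. The part of these cells in the values of *Igf2* and *Igfbp2* was not tested. The ratio of *Igfbp2* to *Igf2* levels was 19.3 in the mutant library and 24.0 in the control library, a difference of 0.801-fold whose interval (0.620 to 1.03) included 1. The ratio within each library carries the uncertainty of the *Igf2* level given above.

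**Figure D4:**
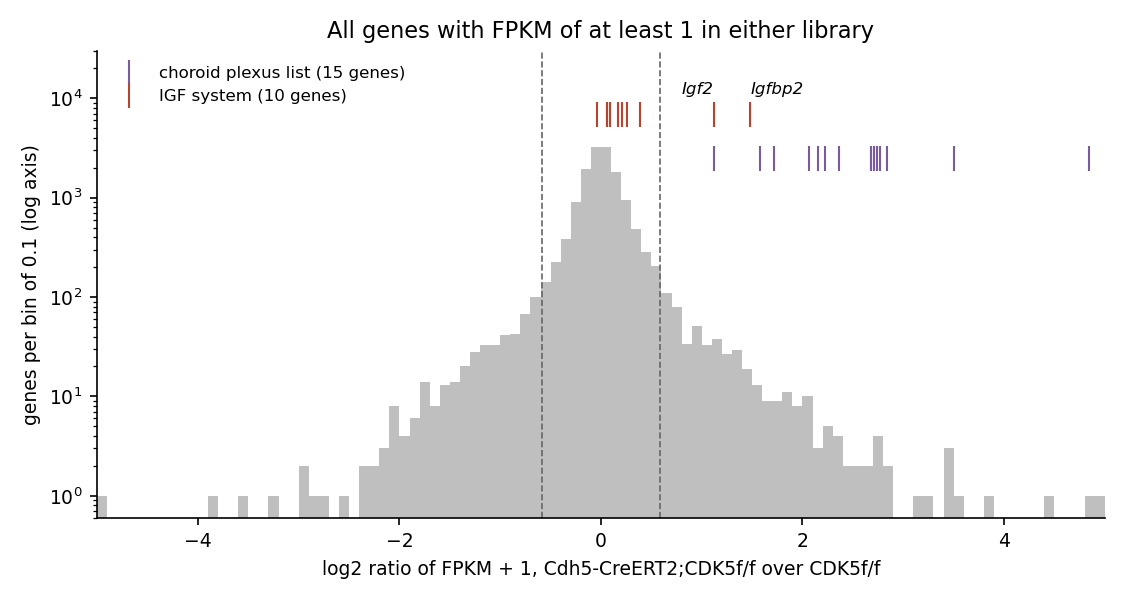
Histogram of the log2 ratio of FPKM + 1 over the 14778 genes (bins of 0.1, the end bins holding any gene beyond 5 either way, and a log axis for the number of genes), with ticks for the 10 IGF system genes and for the 15 choroid plexus markers and dashed lines at 1.5-fold. *Igf2* (1.12) and *Igfbp2* (1.48) lie to the right of the other 8 IGF system genes, and the choroid plexus markers, with a median of 2.68, lie at 1.12 or above.

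The genes around the IGF system were taken as 7 lists with 96 genes, of which 72 passed the FPKM minimum. Past 1.5-fold were 4 higher and 1 lower in the mutant library, or 6.94% of the 72, beside 6.81% of all genes, and the median log2 ratio was 0.03. The share past 1.5-fold was thus near that of all genes.

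Of 14 partners of the ligands and binding proteins, 7 passed the minimum and 1 was past 1.5-fold, with a median of 0.30. This was *Igfbp7*, a matrix protein of blood vessels that binds IGFs weakly, with 354 counts in the mutant library and 215 in the control library, or 15.49 and 9.14 FPKM and a count ratio of 1.695 (1.426 to 2.017). *Ctsd*, the lysosomal protease cathepsin D, had 6233 counts in the mutant library and 4847 in the control library (log2 ratio 0.40), but 34.4% of its exon bases are shared with the gene model *Gm49369*, listed at 0 counts in both. *Stc1*, an inhibitor of PAPP-A, had 90 and 53 counts (log2 ratio 0.37). *Igfbp1*, which lies 3539 bases from *Igfbp3* and is a liver-made binding protein, had 3 and 5 counts.

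Of 8 insulin and relaxin family genes, 2 passed the minimum, 1 of them higher past 1.5-fold, and their median log2 ratio of 0.57 had the other sign (-0.04) with every gene of at least 1 count taken in. *Insl3*, a relaxin family hormone gene known from Leydig cells of the testis, had 24 counts in the mutant library and 1 in the control library, with a count ratio of 24.7 and a counting interval of 4.03 to 1016. It shares 64.8% of its exon bases with *Jak3*, which had 270 and 278 counts, so this value is uncertain. *Ins1* was at 0 counts in both libraries. Of the 3 genes for IGF2 mRNA-binding proteins, which stabilise the *Igf2* transcript among others, only *Igf2bp3* passed the minimum, with 150 counts in the mutant library and 162 in the control library (log2 ratio -0.04). *Igf2bp3* shares 18.7% of its exon bases with *Malsu1*. *Igf2bp1* was at 0 in both.

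Inside the cell, 18 of 20 genes for adaptors and regulators at the receptors passed the minimum and none was past 1.5-fold, with a median log2 ratio of 0.05. Among those with at least 100 counts, the furthest from 0 were *Rack1*, a scaffold protein of the ribosome that also binds the IGF-I receptor, with 3468 counts in the mutant library and 3084 in the control library, and *Sh2b2*, an adaptor of the insulin receptor, with 136 and 117. In the branch of PI3K, AKT, FOXO and mTOR, which carries the metabolic and survival signals, 30 of 31 genes passed and 2 were higher and 1 lower, around a median of -0.0014. *Sgk1*, a kinase downstream of PI3K that glucocorticoids also induce, had 3998 counts in the mutant library and 2561 in the control library, or 43.14 and 26.85 FPKM and a count ratio of 1.61 (1.53 to 1.69). *Bad*, a cell death protein that AKT inactivates, had 522 and 326 counts, a count ratio of 1.65 (1.432 to 1.898), with 20.5% of its exon bases shared with the antisense *Gpr137*.

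*Rps6kb2*, an S6 kinase gene downstream of mTOR, was the one lower gene, with 18 counts in the mutant library and 119 in the control library, or 0.18 and 1.18 FPKM. Its count ratio was 0.156 (0.0892 to 0.257), at a level near the minimum, and 23.7% of its exon bases are shared with *Ptprcap* on the opposite strand, at 0 counts in both. Within 1.5-fold, *Deptor*, an inhibitor of mTOR, had 316 and 228 counts (log2 ratio 0.31), and *Foxo6*, a FOXO factor expressed in the brain, had 532 and 678 (-0.29). These genes of one branch therefore did not go one way.

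In the RAS and MAPK branch, which carries the growth signal, all 10 of 10 genes passed the minimum and none was past 1.5-fold, with a median of -0.04. *Hras*, a GTPase of this branch, had 1650 counts in the mutant library and 1428 in the control library (log2 ratio 0.24). Of 10 imprinted genes and regulators of imprinting around *Igf2* and *Igf2r*, 4 passed and none was past 1.5-fold, with a median of -0.13. *Zfp57*, which protects imprinted methylation, had 236 counts in the mutant library and 191 in the control library (0.26), and the zinc finger gene *Plagl1* had 405 and 483 (-0.16). *Airn*, the non-coding RNA that silences the paternal *Igf2r* in many tissues, had 22 and 26 counts.

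**Figure D5:**
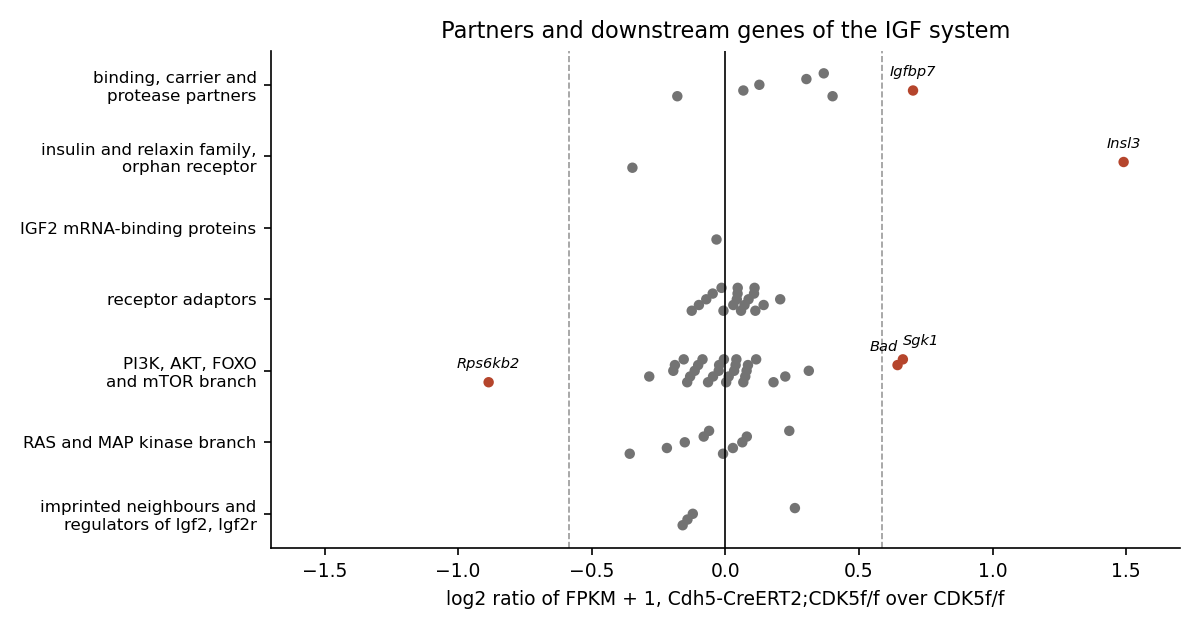
Log2 ratio of FPKM + 1 for the 72 genes of the 7 lists that passed the FPKM minimum, 1 row per list, with a line at 0, dashed lines at 1.5-fold and red points for genes past 1.5-fold (the height within a row only separates points). *Igfbp7*, *Insl3*, *Sgk1* and *Bad* lie beyond the right line and *Rps6kb2* beyond the left one, and the adaptor, RAS and MAPK and imprinted lists lie within the lines.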

How the data were processed

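The deposited table holds raw counts per gene and FPKM for 1 mutant and 1 control library. HISAT2 2.0.1, HTSeq 0.6.1, cutadapt 1.9.1, DESeq2 and build mm9 are listed, with no roles, in the submitters' processing notes, but the table's coordinates are those of GRCm38: 55218 of 55394 gene IDs shared with GENCODE M21 have the same start and end. The authors' FPKM equals the count divided by exonic length and library total, as FPKM is defined, within 0.005, in all 55573 rows. The sources used here do not give strand or multi-mapping rules.

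Log2(FPKM + 1) ratios were computed for genes with FPKM of at least 1 in either library, and a fold of 1.5 was counted as past. Count ratios have exact conditional 95% (Clopper-Pearson) intervals, levels exact Poisson intervals, both for counting error only. A ratio of levels between genes uses FPKM, and its interval the counts. R 4.3.3 with edgeR 4.0.16 (TMM scaling only) and Python 3.11.15 with scipy 1.17.1, numpy 2.4.6, pandas 2.3.3 and matplotlib 3.10.9 were used, and the steps were tested on simulated data. RefSeq start windows were searched for 4 motifs.

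All 10 genes were named. Of the 7 pathway lists, genes past 1.5-fold and up to 2 more with the largest ratios among those with at least 100 counts were named, and of marker lists moving with a gene, those with the most counts. *Slc13a4*, *Calml4*, *Aif1*, *Wfs1* and low-count neighbours were added after their values were seen, and 1 gene that the rule names is not reported here. The genes, 7 pathway lists and 10 marker lists were chosen with earlier results of these data known. Alternatives were other scalings, pseudocounts, filters and fold thresholds.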

Additional observations from a re-analysis of the deposited data

How the results depend on the processing

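No paired analysis was possible because each genotype has 1 library. None of the 60 log2 ratios of the 10 genes recomputed under 4 other scalings and 2 other pseudocounts changed sign. Of these, 58 moved by no more than the distance from the middle to the end of their counting interval on the log2 scale. *Igf2* was 1.12 with a pseudocount of 1, 1.72 with 0.1 and 1.84 with none, since its FPKM is low, while *Igfbp2* stayed between 1.47 and 1.52. With an FPKM minimum of 5, 1 of the 10 genes was past 1.5-fold, since *Igf2* no longer passed, and 3 in place of 5 genes of the pathway lists. The number for the pathway lists was 6 with a pseudocount of 0.1 and with none, and 4 with 100 counts as a further minimum. With a log2 threshold of 0.32 in place of 0.58, *Igfbp4* joined *Igf2* and *Igfbp2*, and at a fold of 2 *Igf2* and *Igfbp2* were past it. Over all genes, the 1006 past 1.5-fold (539 higher, 467 lower) became 1737 (929, 808) with a pseudocount of 0.1, 1847 (992, 855) with none, 293 (167, 126) with an FPKM minimum of 5, and 343 (229, 114) with 100 counts as a further minimum. They became 2447 (1350, 1097) at a log2 threshold of 0.32 and 440 (239, 201) at a fold of 2. The number of the 10 genes with a counting interval above 1 was 5 with median-of-ratios scaling, without *Igfbp3*, and 7 when choroid plexus genes were left out of the totals, with *Igfbp5* added, an alternative chosen after seeing the data. With every gene of at least 1 count taken in, the median of the partners was 0.09 (0.30 with the FPKM minimum) and that of the insulin and relaxin list -0.04 (0.57), while the second was 1.53 and 2.04 with a pseudocount of 0.1 and with none. The insulin and relaxin list and the IGF2 mRNA-binding list had no median with the FPKM minimum of 5. With 1 library per genotype, sex and the choroid plexus markers differing with it, the counting intervals do not bound differences between mice.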

Other observations

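The other marker lists are given here as values, and none has a test. For astrocytes, 10 of 10 genes passed the FPKM minimum and none was past 1.5-fold, with sums of 484.9 FPKM in the mutant library and 552.7 in the control library. Interneuron markers summed to 813.1 FPKM in the mutant library and 819.6 in the control library, and dentate granule cell markers to 94.88 and 95.45, with none past 1.5-fold. Pericyte and smooth muscle markers summed to 73.45 FPKM in the mutant library and 68.24 in the control library, with none past 1.5-fold among 9 of 12 that passed. Of 11 microglial genes that passed, 1 was lower, *Aif1*, with 101 counts in the mutant library and 187 in the control library, and the list summed to 166.6 and 170 FPKM. Of the pyramidal neuron markers, 1 of 10 was past 1.5-fold, *Wfs1*, with 3871 counts in the mutant library and 2422 in the control library. Of the anterior pituitary list, 2 genes passed the minimum, *Prl* and *Gh*, and the list summed to 1.15 FPKM in the mutant library and 14.17 in the control library.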
